A study of Mus musculus with 32 samples.

Results

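Oxidative phosphorylation is the last stage of cellular respiration, and most of its protein subunits are encoded in the nucleus. The genes described here are the nuclear subunit genes of its 5 complexes, measured by RNA sequencing of dissected mouse brain arteries. They were chosen by name alone: symbols beginning with Nduf and a subunit letter, Sdha to Sdhd, Uqcr, Cox4 to Cox8, and Atp5. Assembly factors and symbols marked as pseudogenes (-ps) were left out. Cox6c2, a processed pseudogene in the annotation whose symbol lacks that mark, stayed in. This gave 85 of the 55357 rows of the count table, bearing 84 distinct symbols because Atp5o stands on 2 rows. Complex I holds 35 of them, complex II 4, complex III 8, complex IV 20, and complex V 18. The pattern also takes in Cox7a2l, which helps respiratory complexes associate, and Atp5s, a coupling factor; neither is a core subunit. Ndufa4 was counted in complex IV, where its protein resides.

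The study compared 4 groups of 8 mice, with 1 library per mouse. Notch3-/- mice, which lack the NOTCH3 receptor of vascular smooth muscle, were set against Notch3+/+ mice at 3 months of age. TgNotch3R169C mice were set against non-Tg mice at 12 months. The transgenic line is a model of CADASIL, an inherited small vessel disease, and carries on its X chromosome a large genomic clone of rat Notch3 with the Arg169Cys mutation beside its normal mouse Notch3. None of the mice was treated, and both lines had been backcrossed to C57BL/6. Comparing non-Tg mice at 12 months with Notch3+/+ mice at 3 months sets 2 ages side by side, but the colony differs too, so age and line cannot be told apart in it.

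Electrons enter the respiratory chain through complex I (NADH dehydrogenase) or complex II (succinate dehydrogenase), pass through complex III (cytochrome bc1) and reach oxygen at complex IV (cytochrome c oxidase). The proton gradient built on the way drives complex V, the ATP synthase. Complexes I, III, IV, and V also hold subunits encoded in mitochondrial DNA, whereas complex II is wholly nuclear. Several complex IV subunits exist in alternative forms, of which Cox6a2, Cox7a1, and Cox8b are the heart and skeletal muscle forms, Cox4i2 is a form tied to the response to low oxygen and found in lung and in contractile cells around vessels, and Cox6b2 is best known from testis.

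The libraries held 20289487 to 54481934 counts. The targeted gene matched its labels: Notch3 was at 66.0 to 97.4 CPM (read counts scaled to the size of each library) in Notch3+/+, 13.6 to 18.8 in Notch3-/-, 60.2 to 84.9 in non-Tg, and 108 to 223 in TgNotch3R169C mice. The smooth muscle and endothelial markers were present in all libraries. In 7 libraries the summed level of 8 choroid plexus markers was 8906 to 25830 CPM, against 229 to 656 CPM in the others. These were Notch3-/- replicate 8, TgNotch3R169C replicates 5 and 8, and non-Tg replicates 2, 4, 5, and 6. The 5 pituitary markers summed to 8859 CPM in Notch3+/+ replicate 5 and to at most 768 CPM in any other library. Because whole arteries were sequenced, fewer cells of a type cannot be told apart from less RNA per cell.

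Levels within the chain were compared as CPM per kilobase of the principal transcript, taking the median over the 8 Notch3+/+ mice. The ATP synthase held the highest member, Atp5b (the catalytic beta subunit), at 440.5 CPM per kb, followed in complex V by Atp5a1 (the alpha subunit) at 277 and by Atp5g3 (a gene for subunit c) at 262. In complex IV, Cox4i1, Cox8a, and Cox6a1, the forms used by most tissues, stood highest at 329, 230, and 206 CPM per kb. Complex III was led by Uqcrh (the hinge protein) at 157.5 CPM per kb and was lowest in Uqcrq at 41.1, over a transcript of 1521 bases. Complex II ran from 40.2 for Sdhc, a membrane anchor with a transcript of 3171 bases, to 130.2 for Sdha, the flavoprotein that oxidizes succinate. Both low ranks rest on the length. Undivided, median Uqcrq was 62.5 CPM beside 23.4 for Uqcrb, and Sdhc was 127.5 CPM beside 85.7 for Sdhb and 96.8 for Sdhd. Complex I was more even at its top, where Ndufb10 and Ndufc2 were both at 107 CPM per kb. Its lowest member was Ndufb2 at 6.44 CPM per kb, computed over a transcript of 4371 bases.

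**Figure D1:**
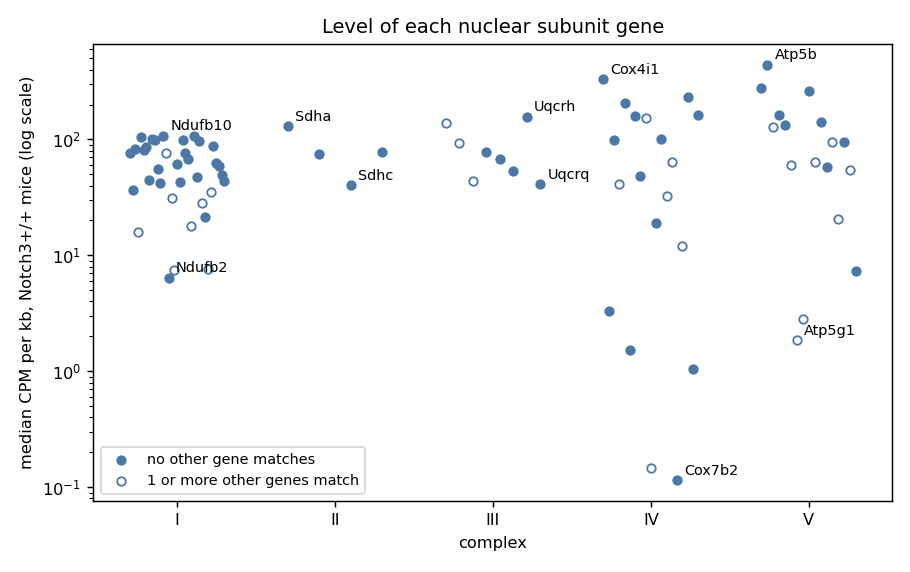
Median level of each nuclear subunit gene in the 8 Notch3+/+ mice, in CPM per kilobase on a log scale, by complex (I to V). Open circles are members whose transcript matches another gene at 95% identity or more over at least 100 bases; the highest and lowest members above 0 are named, Atp5b being the highest at 440.5 and Cox7b2 the lowest at 0.115, and Cox8c and the second Atp5o row are at 0 and not drawn.

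Some of the low levels are uncertain. For 26 of the 85 members the transcript matched at least 1 other gene at 95% identity or more over 100 bases, and reads that fit several places can be lost in counting. Atp5g1, a gene for subunit c, matched 19 other genes and was lowest in complex V among the rows with counts, at 1.85 CPM per kb over a transcript of 4715 bases. Atp5g2 (matching 2 genes, 2.82 CPM per kb), Cox7c (3 genes, 12.1), Ndufb4 (2 genes, 7.41), and Ndufs5 (1 gene, 7.61) were also low. Other members with a match were not low, among them Cox6c (2 genes, 153.7 CPM per kb), Uqcr10 (1 gene, 139.4), and Atp5c1 (2 genes, 127.2). Whether the matches lowered any count was not tested. A further 4 members were too low to test: Cox7b2 (45 counts in all 32 libraries) and Cox8c (3 counts), both known from testis, Cox6c2 (61 counts, a processed pseudogene in the annotation), and the second Atp5o row, which had no counts.

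The muscle forms were minor in these arteries but not absent. Cox7a1 was at 5.91 to 9.76 CPM with a median of 7.49 in Notch3+/+ mice and made up 16.3% ± 2.27 (SD, n = 8) of Cox7a1 plus Cox7a2 per kilobase. Cox6a2 made up 0.711% ± 0.145 (SD, n = 8) of its pair and Cox8b 0.460% ± 0.173 (SD, n = 8). Cox4i2 made up 1.01% ± 0.139 (SD, n = 8) of Cox4i1 plus Cox4i2. Cox6b2 was the most used of the alternative forms, at 48.1 CPM per kb beside 159 for Cox6b1. Cox7a1 shares ranged over 12.4% to 20.1% in Notch3-/- mice, 14.3% to 17.5% in non-Tg mice, and 11.01% to 16.7% in TgNotch3R169C mice, so all groups overlapped.

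In mice without Notch3, 1 of the 81 members tested changed. That member was Cox4i2, which fell by 45.0%. Its level was 2.09 to 2.94 CPM with a median of 2.45 in Notch3+/+ mice and 1.13 to 1.87 CPM with a median of 1.29 in Notch3-/- mice. Every Notch3-/- mouse lay below every Notch3+/+ mouse in this gene. The log2 fold change was -0.86 ± 0.115 (SE, n = 8 and 8; adjusted p = 0.000718, edgeR quasi-likelihood test over 17714 genes), with a 95% confidence interval of -1.11 to -0.62. In this comparison 0.649% of all genes tested passed an adjusted p of 0.05. Cox4i2 rested on 67 to 148 counts per library in Notch3+/+ mice and 32 to 68 in Notch3-/- mice.

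**Figure D2:**
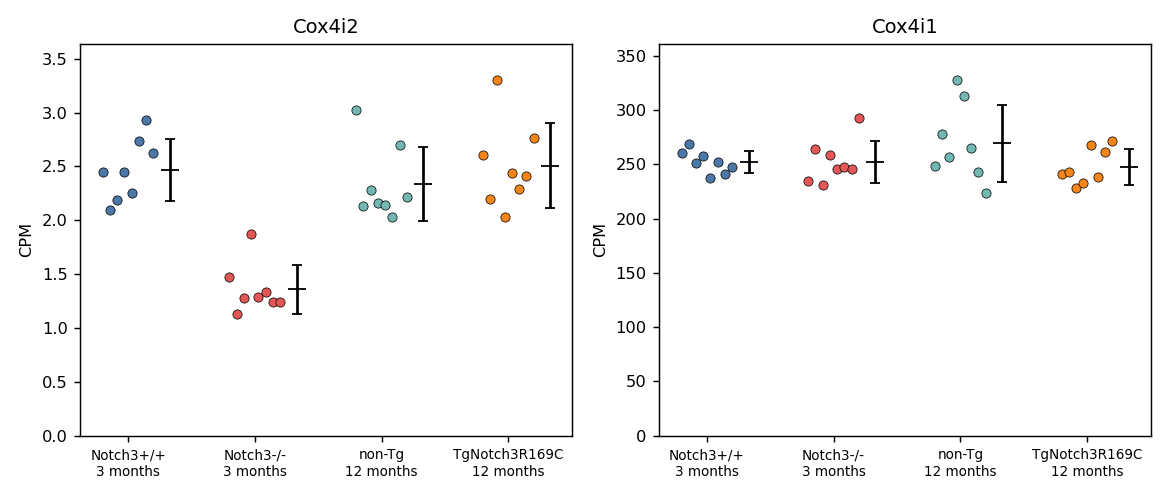
Cox4i2 (left) and Cox4i1 (right) in CPM for each mouse of the 4 groups; bars are the mean and SD of 8 mice, and both axes start at 0. Cox4i2 lies between 1.13 and 1.87 CPM in Notch3-/- mice and at 2.03 CPM or above in all mice of the other groups, while the Cox4i1 points of all 4 groups overlap.

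For the partner form the groups overlapped. Cox4i1 was at 238 to 269 CPM in Notch3+/+ mice and at 231 to 292 CPM without Notch3, a log2 difference of -0.00 with an interval of -0.10 to 0.09. The share of Cox4i2 in the pair accordingly fell from 1.01% ± 0.139 to 0.562% ± 0.103 (SD, n = 8 and 8; adjusted p = 0.00186 over 12 share tests, two-sided exact permutation test, the smallest unadjusted p these groups allow being 0.000155). None of the other 11 share tests passed. The coding sequences of the pair were 62.2% identical over 503 aligned bases, and neither transcript matched another gene at 95% identity. To show how far apart they are, the 120 aligned coding bases in which they are most alike are printed here, from the mouse reference transcripts, with the 31 differing bases in capitals. Cox4i1 is on chromosome 8 and its stretch covers coding bases 228 to 347; Cox4i2 is on chromosome 2 and its stretch covers 237 to 356. The longest identical run in it was 14 bases.
Cox4i1: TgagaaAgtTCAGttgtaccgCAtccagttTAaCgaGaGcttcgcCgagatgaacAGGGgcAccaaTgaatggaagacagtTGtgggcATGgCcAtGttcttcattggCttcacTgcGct
Cox4i2: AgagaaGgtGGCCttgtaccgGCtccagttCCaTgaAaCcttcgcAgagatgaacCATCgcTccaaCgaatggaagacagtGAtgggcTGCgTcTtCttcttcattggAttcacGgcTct

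Smooth muscle markers were lower in the same mice. Their summed level was 2439 to 4322 CPM with Notch3 intact and 1660 to 2581 CPM in Notch3-/- mice, and 6 of the 8 markers passed the test, all lower. With the smooth muscle score as a covariate the Cox4i2 difference was -0.61 (adjusted p = 0.408), and the calls over all genes went from 115 to 16. The score itself differed between the groups, so this fit cannot separate it from genotype, and the lost calls cannot be assigned to either. The smooth muscle markers summed to 1357 to 2074 CPM in non-Tg and 1093 to 1757 CPM in TgNotch3R169C mice. Cox4i2 was at 2.03 CPM or above in both of these groups. Between non-Tg and Notch3+/+ mice the Cox4i2 difference was -0.08 (adjusted p = 0.706, edgeR quasi-likelihood test). Why Cox4i2 was lower in Notch3-/- mice was not tested. Pericyte markers, which mark the other contractile cells of small vessels, summed to 2732 to 3255 CPM with Notch3 intact and 2603 to 3293 CPM in Notch3-/- mice, and 1 of 7 passed the test, higher.

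The other 80 members gave log2 differences of -0.11 to 0.37 in Notch3-/- mice, and 73 of them were below 0.1 in size. The median over the 81 members was -0.00, equal to that over all genes tested, and 40 were higher and 41 lower. After Cox4i2, the smallest p-values belonged to Ndufs8 and Ndufb3 of complex I and Uqcrh and Uqcrb of complex III. Ndufs8, which carries iron-sulfur clusters, was at 59.5 to 67.2 CPM with Notch3 intact and 56.7 to 61.4 CPM in Notch3-/- mice (log2 difference -0.07, adjusted p = 0.577). Ndufb3 was at 23.3 to 25.3 and 22.01 to 25.4 CPM (-0.09, adjusted p = 0.606), and the groups overlapped in both genes. Uqcrh gave -0.08 and Uqcrb -0.11, with adjusted p-values of 0.654 and 0.707. For the median member the unadjusted 95% interval reached 0.11 on the log2 scale to either side, so smaller differences in such a member could not be told from 0. Some members had narrower intervals: 2 of complex I were lower at an unadjusted p below 0.05 (edgeR quasi-likelihood test). After adjustment over all genes, larger differences can be missed too.

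By complex, the summed levels overlapped throughout. Complex I summed to 1814 to 2107 CPM with Notch3 intact and 1858 to 2064 CPM in Notch3-/- mice, and complex V to 2401 to 2753 and 2391 to 2699 CPM. Complexes II, III, and IV gave median changes of -0.03, 0.01, and -0.01. All 4 members of complex II were lower, by at most 0.04. Within complex IV, Cox8b had the highest difference, 0.37, which did not pass (adjusted p = 0.942) and in which Notch3-/- replicate 8, a library rich in choroid plexus markers, stood at 1.56 CPM and the next at 0.629.

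**Figure D3:**
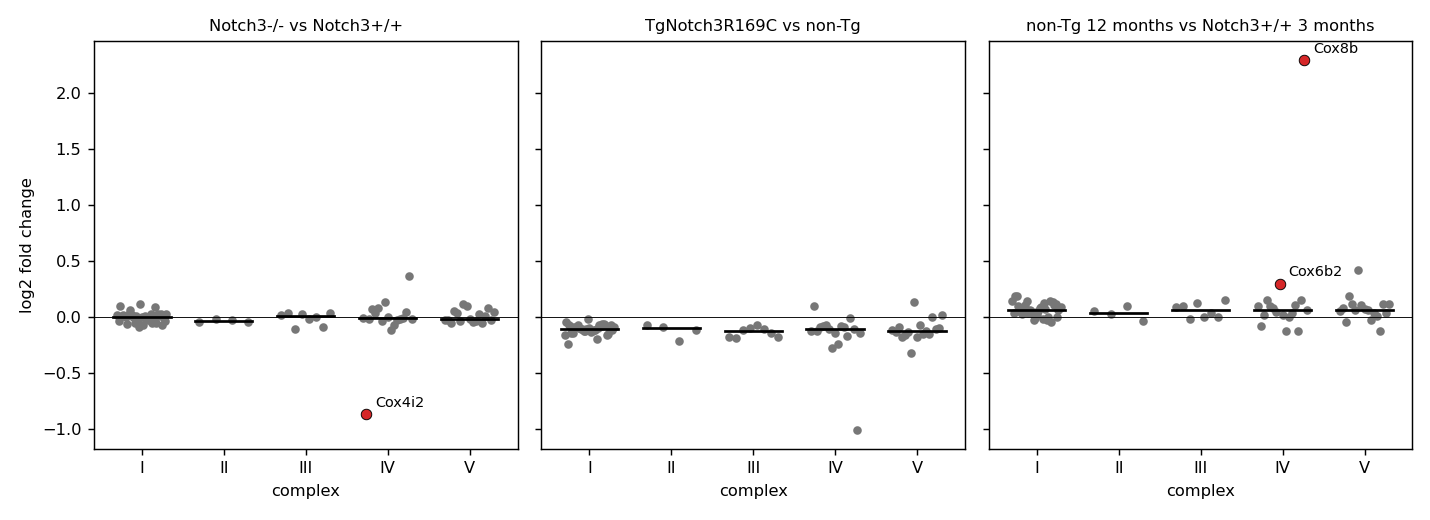
Log2 fold change of each of the 81 tested members by complex in the 3 comparisons; the black line is the median of each complex and red points passed an adjusted p of 0.05. Cox4i2 at -0.86 is the called member in Notch3-/- mice, none is called in TgNotch3R169C mice, and Cox6b2 at 0.30 and Cox8b at 2.30 are called between non-Tg and Notch3+/+ mice.

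In TgNotch3R169C mice no member passed the test, whereas nearly all were slightly lower. Of 81 members, 77 had a negative log2 difference, among them all 35 of complex I, all 4 of complex II, and all 8 of complex III; 53.0% of all genes tested were lower. The median member change was -0.11, and that over all genes was -0.01. Summed over all members, the groups overlapped. The sums were 6268 to 7156 CPM with a median of 6555 in TgNotch3R169C mice and 6293 to 8346 CPM with a median of 6944 in non-Tg mice. In this comparison 0.113% of all genes passed an adjusted p of 0.05. At an unadjusted p below 0.05, 18 members were lower and none was higher, beside 3.27% of all genes that were lower at that level; DESeq2 and limma voom likewise called no member after adjustment. The count of 18 was not steady: it ran from 6 without non-Tg replicate 5 to 39 without non-Tg replicate 8. It also moved by more than 1.5 times without non-Tg replicates 2, 4, 6, or 7 or without TgNotch3R169C replicates 2, 3, 6, or 8. All members were measured in the same libraries, and several moved together from library to library. The counts of 77 and 18 are thus not of separate observations and cannot be weighed as such against the shares of all genes. The same holds for counts of members by sign in the other comparisons.

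The smallest p-values here were those of Ndufs7, Sdhc, Cox6b2, Atp5g3, and Atp5d. Ndufs7, which passes electrons toward quinone in complex I, was at 61.7 to 78.2 CPM with a median of 70.1 in non-Tg mice and 61.8 to 64.8 CPM with a median of 63.2 in TgNotch3R169C mice (log2 difference -0.15, adjusted p = 0.470). Sdhc was at 121.9 to 161 CPM in non-Tg and 111 to 134 CPM in TgNotch3R169C mice (-0.22, adjusted p = 0.512), with 6 of 8 TgNotch3R169C mice below the lowest non-Tg mouse. Cox6b2 was at 29.8 to 38.95 and 23.6 to 36.0 CPM (-0.27, adjusted p = 0.567). Atp5g3 gave -0.17 (adjusted p = 0.611) and Atp5d, the delta subunit of the ATP synthase, gave -0.17 (adjusted p = 0.627). The groups overlapped in all of these genes. Cox4i2 was among the 4 members that were not lower: it was at 2.03 to 3.31 CPM with a median of 2.43 in TgNotch3R169C mice, against a median of 2.19 in non-Tg mice (0.10, interval -0.15 to 0.36, adjusted p = 0.856). Without the choroid plexus-rich libraries its difference was -0.06 (adjusted p = 0.964), and the difference in its share of the pair was -0.0210 percentage points in place of 0.133.

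The choroid plexus content moved with this difference. Of the 8 non-Tg libraries 4 were rich in choroid plexus markers, and of the 8 TgNotch3R169C libraries 2. Without the rich libraries the median member change was -0.05, with 70 of 81 members lower and 6 lower at an unadjusted p below 0.05. With the choroid plexus score as a covariate it was -0.06, with 74 lower. Neuron markers summed to 319 to 1017 CPM in TgNotch3R169C mice and to 195 to 669 CPM in non-Tg mice, and the median with that score as a covariate was -0.07. With the smooth muscle score it was -0.16, and 52 members were then lower at an unadjusted p below 0.05, none passing after adjustment.

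Whether the mutants differed in their effect on the chain was tested directly, as the difference between the TgNotch3R169C change and the Notch3-/- change over 18555 genes. Cox4i2 alone among 81 members passed, with a difference of 0.97 ± 0.158 (SE; adjusted p = 0.00106), being 0.10 in TgNotch3R169C and -0.86 in Notch3-/- mice. Of all genes, 0.350% passed. Without the 7 choroid plexus-rich libraries the difference was 0.79 and the call was lost (adjusted p = 0.102), while the Notch3-/- change itself was -0.84 and kept its call (adjusted p = 0.00195). Of the 81 members, 77 gave a difference below 0, with a median of -0.10. The 2 mutants were compared at different ages.

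Between non-Tg mice at 12 months and Notch3+/+ mice at 3 months, 2 members rose, both alternative forms of complex IV. Cox6b2 was at 24.7 to 31.8 CPM with a median of 28.1 in Notch3+/+ and 29.8 to 38.95 CPM with a median of 34.9 in non-Tg mice, and 6 of 8 non-Tg mice lay above all Notch3+/+ mice (log2 fold change 0.30 ± 0.0660 SE, adjusted p = 0.0123). Cox8b was at 0.188 to 0.591 CPM in Notch3+/+ and 0.264 to 4.75 CPM in non-Tg mice (2.30 ± 0.571 SE, adjusted p = 0.0215), on 6 to 158 counts per library. In this comparison 7.92% of all genes passed, so 2 of 81 is no more than the table as a whole shows. At an unadjusted p below 0.05, 8 members were higher, beside 12.7% of all genes; this count ran from 3 to 16 when 1 mouse was left out. Uqcrc1, a core protein of complex III, Atp5d, and Ndufs3 came next, at 0.13, 0.19, and 0.14 with adjusted p-values of 0.0902, 0.139, and 0.159.

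Of the 81 members, 67 were higher at 12 months, where 50.6% of all genes were, and the median was 0.07. Leaving out non-Tg replicate 4 or replicate 5 brought the median to 0.04 and the count to 56. Without the choroid plexus-rich libraries no member passed, the median was -0.04, and 22 members were higher. Cox8b was then at a difference of 0.02 (adjusted p = 0.982) and Cox6b2 at 0.19 (adjusted p = 0.177). With the choroid plexus score as a covariate the median was -0.05 and Cox8b -0.02 (adjusted p = 0.986). Smooth muscle markers moved with this comparison too: all 8 were called lower in non-Tg mice, with a median of -0.81. With the smooth muscle score as a covariate the median over the members was 0.04, no member passed (Cox6b2 0.37, adjusted p = 0.261; Cox8b 1.60, adjusted p = 0.546), and 0 of all genes passed. The summed markers did not overlap here, at 2439 to 4322 CPM in Notch3+/+ and 1357 to 2074 CPM in non-Tg mice. That fit therefore cannot separate the score from the group. The sign of the median difference between the ages thus turned in both fits that take account of the choroid plexus markers.

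**Figure D4:**
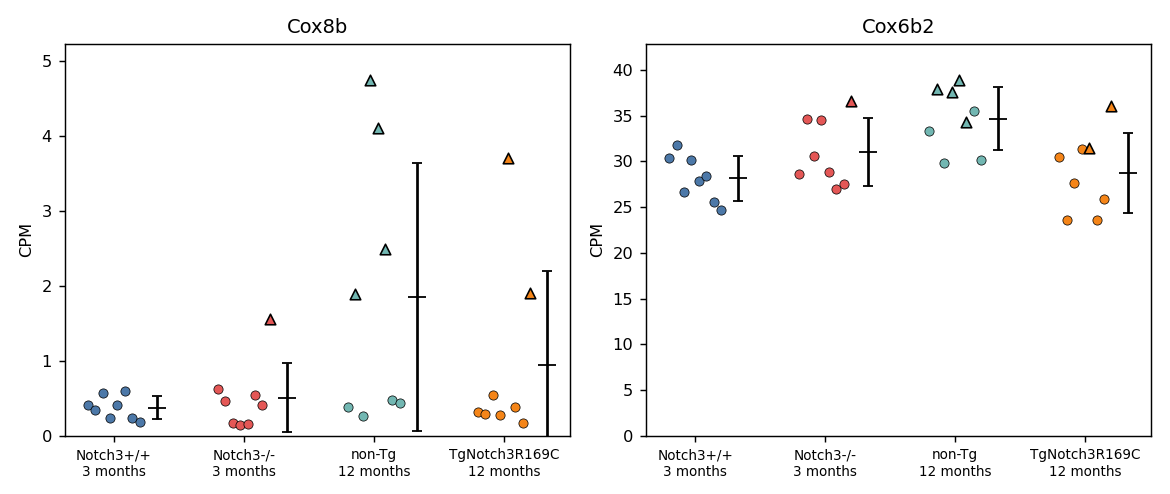
Cox8b (left) and Cox6b2 (right) in CPM for each mouse, with the mean and SD of 8 mice; triangles are the 7 libraries in which 8 choroid plexus markers sum to over 1000 CPM. The 7 triangles hold the highest Cox8b values, from 1.56 to 4.75 CPM, and all circles lie at 0.629 CPM or below.

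Several members followed the choroid plexus markers from library to library. In the 4 rich non-Tg libraries Cox8b was at 1.89 to 4.75 CPM, and in the other 4 at 0.264 to 0.483 CPM. Atp5g1 was at 11.6 to 25.7 and 5.79 to 8.26 CPM, Ndufa1 at 31.0 to 46.4 and 24.9 to 29.9 CPM, and Ndufa11 at 47.95 to 64.3 and 37.95 to 44.5 CPM. Altogether 25 of 81 members lay higher in the 4 rich libraries with no overlap, where 7.83% of all genes tested did. In the other direction 1 of 81 members, Cox4i2, lay lower with no overlap, as did 272 of the 17731 genes tested. That is no more than the table as a whole shows. Cox4i2 was at 2.03 to 2.16 CPM in the rich libraries and 2.22 to 3.03 CPM in the others. These levels enter its TgNotch3R169C change and the difference between the mutants. The ratio of medians between these libraries was 1.14 for the median member and 1 for the median gene. All 85 rows together summed to 7026 to 8346 CPM in the rich non-Tg libraries and 6293 to 6863 CPM in the others. These libraries were sorted by the markers and not by any label, and no test was made.

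**Figure D5:**
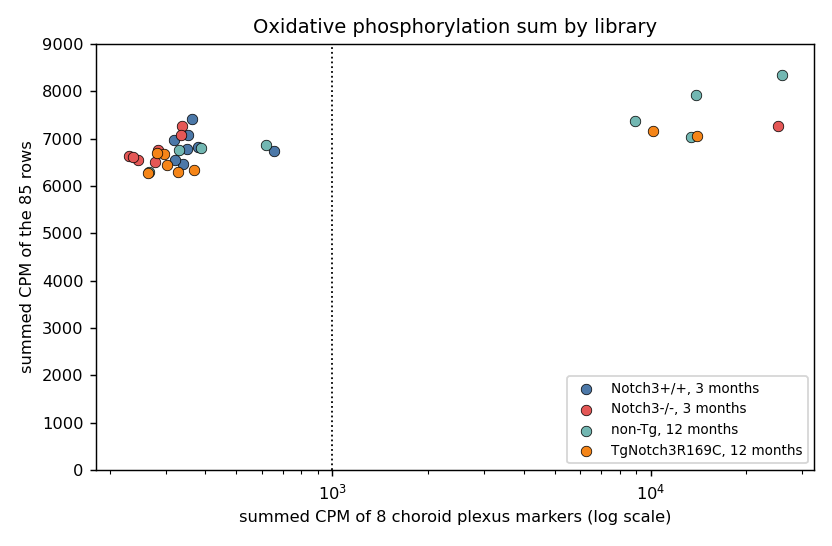
Summed CPM of the 85 rows against the summed CPM of 8 choroid plexus markers on a log scale, with 1 point per library; the dotted line is at 1000 CPM. The 7 libraries to the right of the line sum to 7026 CPM or more, and the libraries to the left lie between 6268 and 7414 CPM.

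Chromosome 17, which carries Notch3, and chromosome X, which carries the transgene, hold 9 members. The nearest to Notch3 were Ndufv3 at 0.59 megabases and Ndufa7 at 1.66 megabases (GRCm38), with Notch3-/- differences of 0.03 and 0.06. Ndufb10, Ndufa11, Ndufv2, and Cox7a2l on the same chromosome gave -0.05, 0.10, -0.03, and -0.03. On chromosome X, Ndufa1, Ndufb11, and Cox7b gave -0.16, -0.13, and -0.16 in TgNotch3R169C mice. None of the 9 passed in any comparison.

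Other genes of the pathway gave few calls. Of 13 subunits encoded in mitochondrial DNA, 7 could be tested and none passed in any comparison; the other 6 were listed at 3 counts or fewer in every library, which says nothing of their presence in the cell. The sum over the 13, carried by the 7 tested, was 32280 to 42190 CPM in Notch3+/+, 31810 to 43390 in Notch3-/-, 35180 to 39010 in non-Tg, and 33090 to 40990 in TgNotch3R169C mice, or about 5.58, 5.62, 5.34, and 5.48 times the nuclear members' sum at the median. Because the other 6 were hardly counted, this is not a ratio of all mitochondrial to nuclear subunit RNA. Assembly factors (46 tested), the tricarboxylic acid cycle with pyruvate dehydrogenase (17), mitochondrial ribosome genes (77), and nuclear chain genes outside the name pattern such as Cyc1 and Ndufab1 (4) had no call in any comparison. In TgNotch3R169C mice 17 of 17 tricarboxylic acid cycle genes and 37 of 46 assembly factors were lower, with medians of -0.08 and -0.04. Of the mitochondrial ribosome genes 61 of 77 were lower (median -0.04). Cytosolic ribosome genes were split, 39 higher and 37 lower (median 0.0013). Of all genes tested 53.0% were lower, with a median of -0.01. Genes of a list were measured in the same libraries, so these counts are not of separate observations either. Ndufa4l2, a relative of Ndufa4 left out by the name rule and known to respond to low oxygen, was at a median of 5.68 CPM with Notch3 intact and 5.67 CPM in Notch3-/- mice (-0.02, adjusted p = 0.994).

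Calls in neighbouring lists came only from the comparison of the 2 ages. In glycolysis, 3 of 19 genes were higher in non-Tg mice at 12 months: Pfkl (phosphofructokinase) by 0.22, Hk1 (hexokinase) by 0.20, and Eno1 (enolase) by 0.33, with adjusted p-values of 0.0112, 0.0210, and 0.0381. Among the regulators of mitochondrial biogenesis 2 of 17, the nuclear receptors Esrrb and Esrrg, were higher by 2.56 and 1.52 (adjusted p = 0.00956 and 0.0334). Of the cytosolic ribosome genes tested, Rpl7 fell by 0.16 (adjusted p = 0.0401). Over all genes, 7.92% passed in this comparison. With the choroid plexus-rich libraries left out, none of these 6 genes passed (adjusted p = 0.101 to 0.662); Eno1 was then at 0.10, Pfkl at 0.14, Hk1 at 0.09, Esrrb at 0.77, and Esrrg at 0.25, while Rpl7 was at -0.18, no smaller than before. With the smooth muscle score as a covariate none passed either (adjusted p = 0.571 to 0.985). That score cannot be separated from the group in this comparison. Ppargc1a, the coactivator best known for raising mitochondrial gene expression, gave -0.04, -0.22, and 0.26 in the 3 comparisons, none of which passed.

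The promoters of the members were searched for letters they share. RefSeq promoters (GRCm38.p6) were found for 66 of the 84 symbols, and the 250 bases before the start were searched on both strands; Cox4i1 and Cox4i2 were not among them. Nuclear respiratory factor 1 (NRF1) is the classical activator of respiratory chain genes. Its core GCGCATGC was in the promoters of 8 members, that is in 11.3% of 71 member promoters and 2.26% of all 32851. The ETS core CCGGAAG was in 16.9% and 6.91%, the estrogen-related receptor core AAGGTCA in 7.04% and 4.08%, the YY1 core AAGATGG in 1.41% and 4.49%, and the RBPJ core TGGGAA, through which NOTCH signals act, in 19.7% and 21.6%. The median share of G and C in these 250 bases was 56.0% for member promoters and 52.4% for all, and the motif shares were not matched for it. Each promoter was counted once per motif, also where matches on both strands overlapped, and a match is a description and not a binding site. The stretches around the NRF1 cores are printed here on the gene's own strand, with the matched letters in capitals, to show the members that carry them.
Atp5g2, chr15:102671060-102671109, minus strand: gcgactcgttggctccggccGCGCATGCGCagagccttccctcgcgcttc
Atp5k, chr5:108434420-108434469, minus strand: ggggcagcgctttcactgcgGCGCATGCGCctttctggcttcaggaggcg
Atp5l, chr9:44920955-44920992, minus strand: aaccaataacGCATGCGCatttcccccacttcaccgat
Cox6a1, chr5:115349091-115349140, minus strand: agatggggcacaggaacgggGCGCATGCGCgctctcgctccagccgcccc
Ndufa11, chr17:56717682-56717731, plus strand: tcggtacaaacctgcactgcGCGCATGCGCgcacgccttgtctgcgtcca
Ndufa6, chr15:82354347-82354394, minus strand: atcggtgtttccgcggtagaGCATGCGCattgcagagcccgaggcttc
Ndufa8, chr2:36049339-36049366, minus strand: gcttgcgcgtcgctggagacGCATGCGC
Sdhb, chr4:140961197-140961244, plus strand: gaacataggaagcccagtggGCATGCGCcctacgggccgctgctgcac

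The promoters of the called members Cox6b2 and Cox8b held none of the 5 motifs in these 250 bases. They are printed whole, on the minus strand of chromosome 7, because these 2 genes gave the called rises.
Cox6b2, chr7:4753095-4753344: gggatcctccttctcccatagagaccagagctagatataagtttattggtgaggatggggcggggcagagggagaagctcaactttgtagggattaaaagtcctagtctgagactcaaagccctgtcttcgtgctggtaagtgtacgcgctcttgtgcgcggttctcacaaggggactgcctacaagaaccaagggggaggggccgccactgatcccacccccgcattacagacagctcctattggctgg
Cox8b, chr7:140900447-140900696: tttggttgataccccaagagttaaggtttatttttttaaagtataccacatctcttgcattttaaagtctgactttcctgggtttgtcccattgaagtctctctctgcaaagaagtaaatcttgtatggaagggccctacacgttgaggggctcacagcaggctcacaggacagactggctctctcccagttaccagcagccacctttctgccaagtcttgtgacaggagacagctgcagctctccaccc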

How the data were processed

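The authors deposited 1 table of raw read counts per Ensembl gene for 32 libraries of brain arteries, made per the labels from polyA-selected RNA with a stranded kit; the submitters' processing notes name STAR 2.5.3a, HTSeq 0.6.1p1, and the build mm39, and the strand setting of the counting is not given in the sources used here. Rows named no unassigned class, and every column matched 1 sample. Members were taken by symbol after joining the Ensembl identifiers to mouse symbols (52081 of 55357 rows). The members and gene lists were chosen with earlier results of these data known.

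Each pair of groups was fitted over all genes that passed the default filter on low counts, with TMM scaling and the quasi-likelihood test of edgeR 4.0.16, and p-values were adjusted by the Benjamini-Hochberg method over all genes tested; 81 of the 85 members passed the filter. The difference between the mutants was a contrast in a fit of all 4 groups. DESeq2 1.42.0 and limma voom (limma 3.58.1), other scalings and filters, marker scores as covariates, and leaving out each mouse were alternatives; leaving out choroid plexus-rich libraries, and exon union lengths, were added after the data were seen. Levels are CPM with TMM scaling over all 32 libraries, divided by the length of the principal transcript (GENCODE vM21) for levels per kilobase. Shares of a form in its pair were compared by exact permutation of the mice, adjusted over 12 tests. Transcripts were searched for copies with blastn 2.17.0. The fits were tested on simulated data. The labels name replicates without saying more, and the study's methods give each as a mouse. Counting error and spread between mice limit the precision; intervals are from the fits.

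Genes named are all called members, the 5 smallest p-values in each of the 3 comparisons, the alternative forms of complex IV, the highest and lowest member of each complex, members on chromosomes 17 and X, members not tested, and up to 4 called genes per list. Members named beside the choroid plexus markers were chosen after their values were seen.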

Additional observations from a re-analysis of the deposited data

Results flagged for a closer look

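Cox4i2 differed between the mutants: the TgNotch3R169C change minus the Notch3-/- change was 0.97 on the log2 scale, as the report gives with its test and with the value without the choroid plexus-rich libraries. For each of the 81 members tested and for the sum of each complex, in each group of 8 mice, a mouse was singled out where its gap to the next value, as a share of the range of its group, was above Dixon's 95% limit for 8 values. Of 344 groups examined 13 were singled out, where chance alone does so in about 1 group in 20, or 17.2 groups.

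Of the 13, 8 were in choroid plexus-rich libraries, which were 7 of the 32. Several of these came from the same library, so they are not separate observations. Notch3-/- replicate 8 stood highest in Atp5g1 at 17.2 CPM with the next mouse at 8.96 (0.844 of the range), Cox8b at 1.56 with the next at 0.629 (0.654), Ndufb2 at 36.2 (0.547), and Uqcr10 at 71.1 (0.543). Non-Tg replicate 4 stood highest in Atp5g1 at 25.7 CPM (0.617) and Ndufb2 at 41.8 (0.557), and TgNotch3R169C replicate 8 in Ndufv2 at 89.9 CPM (0.592) and Ndufa7 at 58.4 (0.539). The other 5 were Notch3-/- replicate 4, highest in Cox4i2 at 1.87 CPM with the next at 1.48 (0.531), Notch3+/+ replicate 2, highest in Atp5a1 at 749 CPM (0.535), Notch3+/+ replicate 5, lowest in Ndufb9 at 41.7 CPM (0.542), and non-Tg replicate 8, lowest in Ndufa10 at 65.2 CPM (0.609) and Ndufb4 at 6.12 CPM (0.530). Without Notch3-/- replicate 4 the Cox4i2 call in Notch3-/- mice was kept.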

How the results depend on the processing

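The median member change in Notch3-/- mice lay near 0 and had no steady sign: -0.0011 as reported, 0.0004 to 0.0073 with RLE scaling, mitochondrial genes left out, no filter, at least 10 counts, or DESeq2, and -0.0141 to 0.0183 when 1 mouse was left out. The TgNotch3R169C median stayed below 0 in every alternative run. With the smooth muscle score as a covariate, 0 members passed in Notch3-/- mice, where the score itself differed between the groups. Between non-Tg and Notch3+/+ mice, 0 members passed at an adjusted p of 0.01, with the choroid plexus or the smooth muscle score, or without the choroid plexus-rich libraries, and 1 passed (Cox6b2) with at least 10 counts in every library, with limma voom, or with the replicate block. The median was -0.0549 with the choroid plexus score, where Cox8b was -0.0179, and -0.0387 without the rich libraries. Without them the difference between the mutants had 0 called members, and 3 shares turned, none passing: Cox4i2 to -0.0210 in TgNotch3R169C mice and 0.0734 between the ages, and Cox8b to -0.0257 in Notch3-/- mice. The causes were not tested.

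Leaving out 1 mouse at a time gave 1, 0, and 2 called members in the 3 comparisons throughout. The Cox6a2 share difference, which passed nowhere, ran from -0.0184 to 0.0790 percentage points in Notch3-/-, -0.0405 to 0.0528 in TgNotch3R169C, and -0.0476 to 0.0457 between the ages. The Cox8b share difference ran from -0.0257 to 0.205 in Notch3-/- mice and from 1.09 to 1.63 between the ages, passing without non-Tg replicate 3 (adjusted p = 0.0345, exact permutation test).

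The labels do not say whether same-numbered mice were paired. Correlations of same-numbered deviations ran from -0.246 to 0.423, which cannot decide it, because differently numbered mice were not compared. With the replicate block, calls over all genes were 97, 6, and 715 in place of 115, 20, and 1398, and the Cox4i2 share difference of -0.452 had an adjusted p of 0.0938, the lowest that the exact paired test allows over 12 tests. For members near 1 CPM, such as Cox8b, counts of 5 to 158 per library limit the precision. Calls over all genes moved by more than 1.5 times also with DESeq2 (278, 80, and 2262, and 155 in place of 65 for the difference between the mutants) and with all 4 groups in one fit (174 in Notch3-/-). They were 16 in Notch3-/- mice and 0 between the ages with the smooth muscle score, 11 in TgNotch3R169C mice and 302 between the ages with the choroid plexus score, 10 in TgNotch3R169C mice with the neuron score, and 2, 402, and 39 without the rich libraries in TgNotch3R169C mice, between the ages, and for the difference between the mutants. Leaving out 1 mouse moved them that far in TgNotch3R169C mice (11 without non-Tg replicate 3 or 4, 12 without TgNotch3R169C replicate 1, 13 without non-Tg replicate 7) and between the ages (895 without Notch3+/+ replicate 7).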
